A study of Homo sapiens with 15 samples.

Results

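The cells described here were K562 cells at both ends of a dose series of martinostat, an inhibitor of histone deacetylases (HDACs), after 24 h of treatment. The 3 libraries labelled 1 µM, the highest dose, were set against the 3 labelled 0.15 µM, the lowest, which makes 6 of the 15 libraries in the series, and the 3 libraries of untreated cells served as the reference level. The rule that chose them used dose labels only and no measured value. K562 is an erythroleukaemia line, established from a patient with chronic myeloid leukaemia and carrying BCR-ABL, so all 3 groups share that fusion and one genetic background, and the results describe one line. The series text calls the replicates independent biological replicates, and the labels do not say whether the untreated cells received the solvent.

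HDACs remove acetyl groups from histones and from other proteins such as tubulin, and HDAC inhibitors are known to raise acetylation and to change transcription broadly in both directions. K562 cells stand at the branch between the erythroid and the megakaryocytic lineage, and GATA1, TAL1 and KLF1 are transcription factors of the erythroid branch. Protein quality in such cells rests on chaperones that fold proteins, the proteasome that degrades tagged proteins, and autophagy, which delivers cargo to the lysosome.

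Poly(A) RNA was sequenced, and the deposited values were counts per gene. Totals lay between 27012416 and 29541622 counts in the libraries of both doses and between 29555379 and 32805574 in untreated cells. Levels are given below as CPM, the counts of a gene scaled to 1e6 counts in the library, after TMM scaling, a correction for differences in RNA composition. CPM is not divided by gene length, so it compares a gene between groups and not one gene with another. Of 60649 genes, 23711 passed the filter on low counts and were tested with edgeR's quasi-likelihood test. A gene was called when its Benjamini-Hochberg adjusted p was under 0.05, and "rose" and "fell" refer to called genes at 1 µM compared with 0.15 µM unless another comparison is named.

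Replicate 3 at 0.15 µM and replicate 2 at 1 µM stood apart from the other libraries of their groups. Pairs that included 1 of them differed with a chi-square per degree of freedom between 32.1 and 41.8, against 6.15 to 11.8 in all other pairs of the 3 groups, so no pair agreed within sampling noise. Across 10434 genes over 8 CPM, their deviation from the other libraries of the group had a Pearson correlation with log2 exon length of -0.28 in replicate 3 at 0.15 µM and of -0.41 in replicate 2 at 1 µM, so short genes lay higher in them relative to the others. The other libraries of the doses had correlations between 0.06 and 0.37, and untreated libraries between -0.11 and 0.10. A deviation is relative to the other libraries of its own group, so the values within a group are not independent, and the length trend by itself does not single out 2 libraries. Counts of calls are therefore also given without these 2 libraries, an alternative chosen after seeing the data, and their part in the results was otherwise not tested.

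Between the doses, 5090 genes were called higher at 1 µM (21.5% of those tested) and 5472 lower (23.1%), together 44.5%, and 6630 genes (28%) were called with a change over 2-fold. Without both libraries that stood apart, 4118 genes were called higher and 4225 lower. The median log2 fold change of all genes tested was 0.02, and a list of genes below is read against these shares. Against untreated cells, 51.2% of genes were called at 0.15 µM (31.9% higher and 19.4% lower) and 66.2% at 1 µM (38.8% higher and 27.5% lower). The medians of all genes tested in these comparisons were 0.28 and 0.32. These comparisons depended on the scaling: with library totals in place of TMM, 9582 genes were called higher and 2118 lower at 0.15 µM against untreated (7557 and 4591 with TMM), and 10808 higher and 4777 lower at 1 µM (9193 and 6514), with medians of all genes of 0.64 and 0.67. The comparison between the doses moved less, with 4804 higher and 5314 lower under library totals and a median of all genes between -0.02 and 0.14 over all alternatives. The comparisons with untreated cells share the untreated libraries, so their values are set side by side and no overlap is drawn from them.

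The results are ordered by 22 lists of genes with known roles, which held 1010 entries for 1003 different genes, of which 966 entries passed the filter on low counts. All members passed in 8 lists, and the lists with most members left out were the megakaryocyte and platelet genes (23 of 35 tested), neuronal and synaptic genes (65 of 72) and NRF2 targets and metallothioneins (29 of 34). A gene silent in 1 group can pass the filter only through a group where it is high, so counts over tested members are descriptions.

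**Figure D1:**
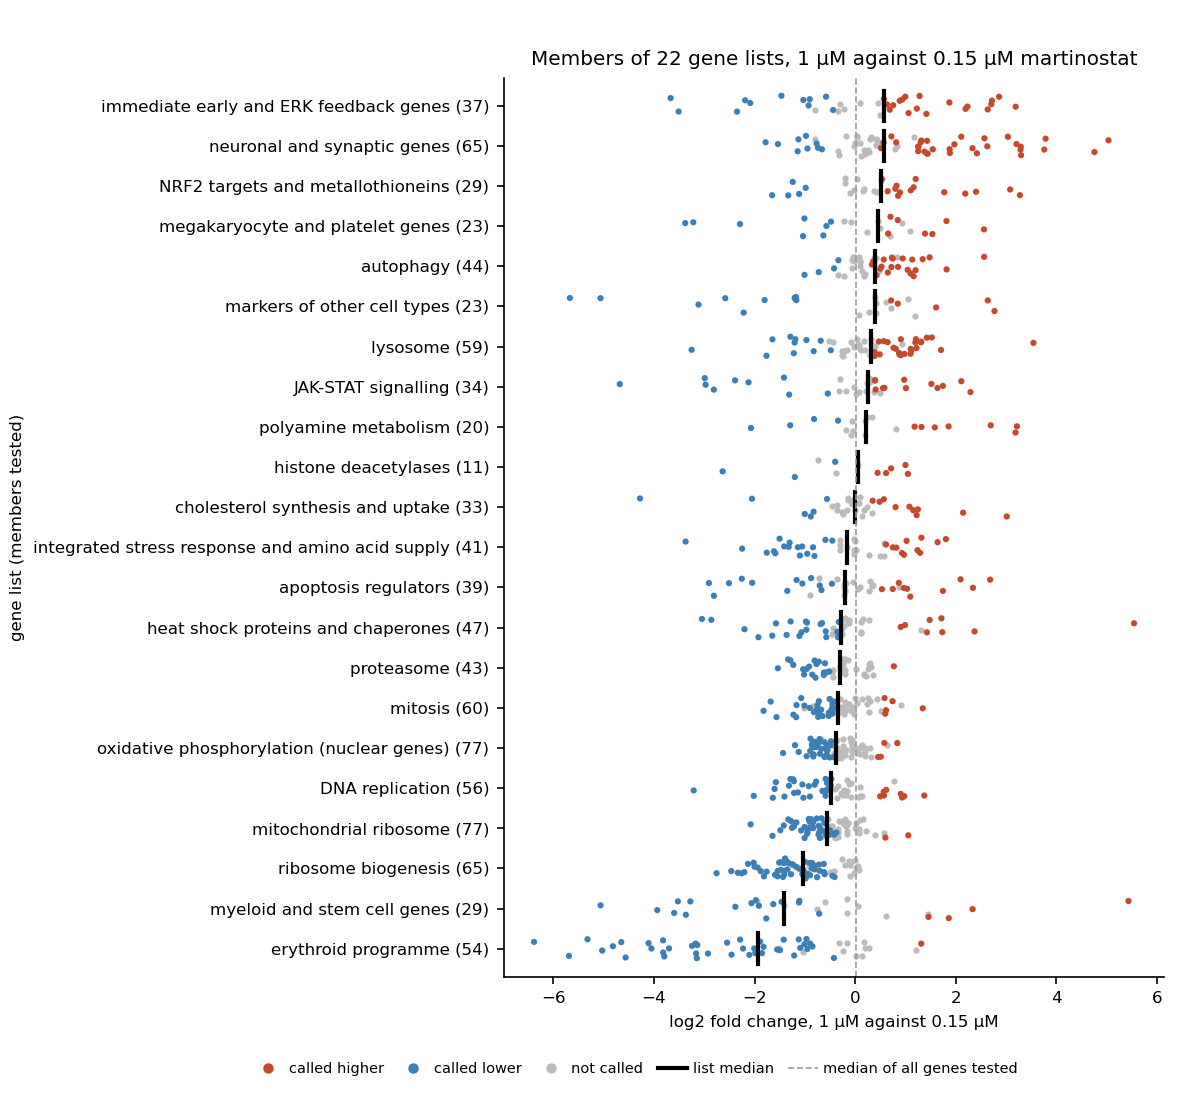
Log2 fold change of every tested member of 22 gene lists at 1 µM compared with 0.15 µM martinostat (x axis), with lists ordered by their median (y axis, number of members tested in parentheses). Red and blue points are genes called higher and lower, grey points were not called, black bars are list medians and the dashed line is the median of all genes tested. The erythroid list has the lowest median, -1.94, and the ribosome biogenesis list holds no gene called higher.

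Sequences of the genes at the extremes of the comparison are shown first. The mature miRNAs below lie inside the 2 host transcripts with the largest fall and the largest rise among the genes named by rule, MIR223HG (chrX:66015414-66020426, plus strand) and MIR7-3HG (chr19:4769031-4785077, plus strand). The letters are RefSeq's on GRCh38.p14, and capitals mark the seed, bases 2 to 8. Both miR-223 arms lie wholly within annotated exons of the host, at chrX:66018895-66018916 and chrX:66018937-66018958, whereas miR-7-5p at chr19:4770700-4770723 lies outside the exons of its host. The libraries measured the host RNA and not the mature miRNAs, and no 2 of the 3 share a seed.
hsa-miR-223-5p: cGUGUAUUugacaagcugaguu
hsa-miR-223-3p: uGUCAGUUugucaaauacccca
hsa-miR-7-5p: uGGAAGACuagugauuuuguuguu

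Upstream sequence is shown for 3 further genes on which the results turn, NEU1 and MCOLN1 of the lysosome and the erythroid factor KLF1, from RefSeq starts on GRCh38.p14 and in the direction of the gene. The stretches are chr6:31862906-31863071 (minus strand) for NEU1, chr19:7522374-7522623 (plus strand) for MCOLN1 and chr19:12887202-12887451 (minus strand) for KLF1. Capitals mark CACGTG, the E-box core contained in the element that the lysosomal regulator TFEB is known to bind, in NEU1 and MCOLN1, and GATAAG, the core letters of GATA factor sites, in KLF1, where it reads CTTATC and thus lies on the opposite strand. The match begins 126 bases before the RefSeq start in NEU1, 41 and 14 bases before it in MCOLN1 and 67 bases before it in KLF1. In NEU1 that start lies inside the annotated gene, and only the 166 upstream bases outside the gene are printed. The printed NEU1 stretch therefore ends before the start, and its match lies closer to the printed end than 126 bases.
NEU1: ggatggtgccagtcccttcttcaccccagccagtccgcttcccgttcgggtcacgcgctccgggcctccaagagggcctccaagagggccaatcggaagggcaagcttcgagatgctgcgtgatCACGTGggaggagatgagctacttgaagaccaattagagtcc
MCOLN1: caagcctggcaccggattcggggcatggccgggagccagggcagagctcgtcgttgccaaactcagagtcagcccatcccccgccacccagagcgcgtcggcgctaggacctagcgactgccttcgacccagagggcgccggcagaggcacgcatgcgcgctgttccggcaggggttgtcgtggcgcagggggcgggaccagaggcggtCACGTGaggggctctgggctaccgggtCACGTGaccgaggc
KLF1: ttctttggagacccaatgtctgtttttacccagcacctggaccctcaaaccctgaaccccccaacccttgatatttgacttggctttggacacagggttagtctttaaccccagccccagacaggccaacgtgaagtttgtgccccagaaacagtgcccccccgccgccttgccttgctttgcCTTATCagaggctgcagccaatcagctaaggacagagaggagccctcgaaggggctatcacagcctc

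On either strand of the 250 bases before the start, CACGTG was present in 6.49% of 27305 promoters and in 12 of the 40 lysosome genes with a promoter sequence. Among the lysosome genes tested, 5 of 12 with the motif rose and 1 fell, and 11 of 28 without it rose and 7 fell. GATAAG was present in 5.65% of all promoters and in 10 of 35 erythroid genes. Of the erythroid genes with the motif, 8 of 9 tested fell, as did 20 of 25 without it. Both motifs were chosen with results known, and a match is a run of letters, not a shown binding site.

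The erythroid programme had the median farthest from 0 of all 22 lists: it stood near the untreated level at 0.15 µM and far below it at 1 µM. Of 54 members tested, 42 fell (23.1% of all genes tested did) and 1 rose, with a median log2 fold change of -1.94. At 0.15 µM the same list had a median of -0.05 against untreated cells (10 called higher, 14 lower), and at 1 µM of -2.09 (3 higher, 45 lower). With library totals as the scaling these medians were 0.31 and -1.73, so the low dose turned to the other side of the untreated level and the high dose did not. Without the libraries that stood apart, 41 members were called lower and 1 higher. In bulk RNA, fewer cells of a type and less RNA per cell cannot be told apart, and this holds for every result here.

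Among 10 erythroid transcription factors, 9 fell and none rose. GATA1 (chrX:48786540-48794311), the master regulator of the lineage, stood at 326, 335 and 323 CPM in untreated libraries, at 308, 286 and 344 at 0.15 µM and at 15.3, 20.8 and 20.5 at 1 µM. The untreated and 0.15 µM libraries overlapped, and each 1 µM library lay far below both. The fall between the doses was 16.6-fold (log2 fold change -4.05 ± 0.17, SE, edgeR adjusted p = 4.80e-12). TAL1, a partner of GATA1, had the same order, with means of 122, 123 and 25.1 CPM and a log2 fold change of -2.29 ± 0.19 between the doses.

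KLF1 (chr19:12884422-12887201), which drives the adult erythroid genes, already lay lower at 0.15 µM. Its untreated libraries held 439, 377 and 404 CPM, those at 0.15 µM 194, 169 and 192 and those at 1 µM 3.44, 4.08 and 3.21, so the 3 groups formed separate steps. The fall from the lower to the higher dose was 51.7-fold (log2 fold change -5.69 ± 0.24, edgeR adjusted p = 5.57e-12). HEMGN (hemogen, chr9:97926791-97944856), a nuclear protein of haematopoietic cells, followed the same steps, at 246, 316 and 276 CPM, then 88.9, 100.4 and 83.9, then 1.31, 1.17 and 0.767. It fell 83.7-fold between the doses (log2 fold change -6.39 ± 0.23, edgeR adjusted p = 7.35e-13). Of the factors outside the naming rule, chosen here after their values were seen, NFE2 stood at 264, 437 and 17.4 CPM on average and GFI1B at 147, 121 and 3.68.

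Membrane and surface genes of red cells mostly behaved alike, with 18 of 20 members lower and 2 not called. RHD and RHCE are near-copies of each other, and how reads were shared between them is uncertain. EPOR, the erythropoietin receptor, fell 1.86-fold, from 33.4 to 17.9 CPM. TFRC, the transferrin receptor that imports iron, was not called between the doses: its mean was 1228 CPM in untreated cells, 423 at 0.15 µM and 485 at 1 µM, and the libraries of the doses overlapped (adjusted p = 0.342, edgeR).

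Haem synthesis and its mitochondrial carriers had 9 of 11 members lower and 1 higher. The gene that rose was ALAD (chr9:113386312-113401290), the enzyme of the second step of the pathway, at 25.7, 28.9 and 22.9 CPM in untreated libraries, 40.5, 49.1 and 42.3 at 0.15 µM and 115, 108 and 104 at 1 µM. Its groups did not overlap, and the rise between the doses was 2.48-fold (log2 fold change 1.31 ± 0.16, adjusted p = 1.88e-06). ALAD was the only member of the erythroid list called higher between the doses, under the main test and under each alternative tried.

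Globins were less uniform. Of 8 globin genes and globin chaperone genes tested, 3 fell and 5 were not called. HBZ, the embryonic zeta-globin typical of K562 cells, stepped down from 986, 1090.0 and 1081 CPM to 347, 288 and 362 and to 85.1, 74.1 and 93.4, a fall of 3.95-fold between the doses (adjusted p = 0.00398). HBG1 and HBG2, the fetal gamma-globins, are near-identical, so their separate values are uncertain. HBG2 held 225, 177 and 251 CPM at 0.15 µM and 134, 281 and 139 at 1 µM, where replicate 2, a library that stood apart, was the high one. HBE1, the epsilon-globin, lay between 0.170 and 0.491 CPM on average in the 3 groups, and 90.0% of its exon sequence lies under another gene on its strand. Of the 9 markers of K562 identity, 8 were thus present in untreated cells and HBE1 was near 0.

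**Figure D2:**
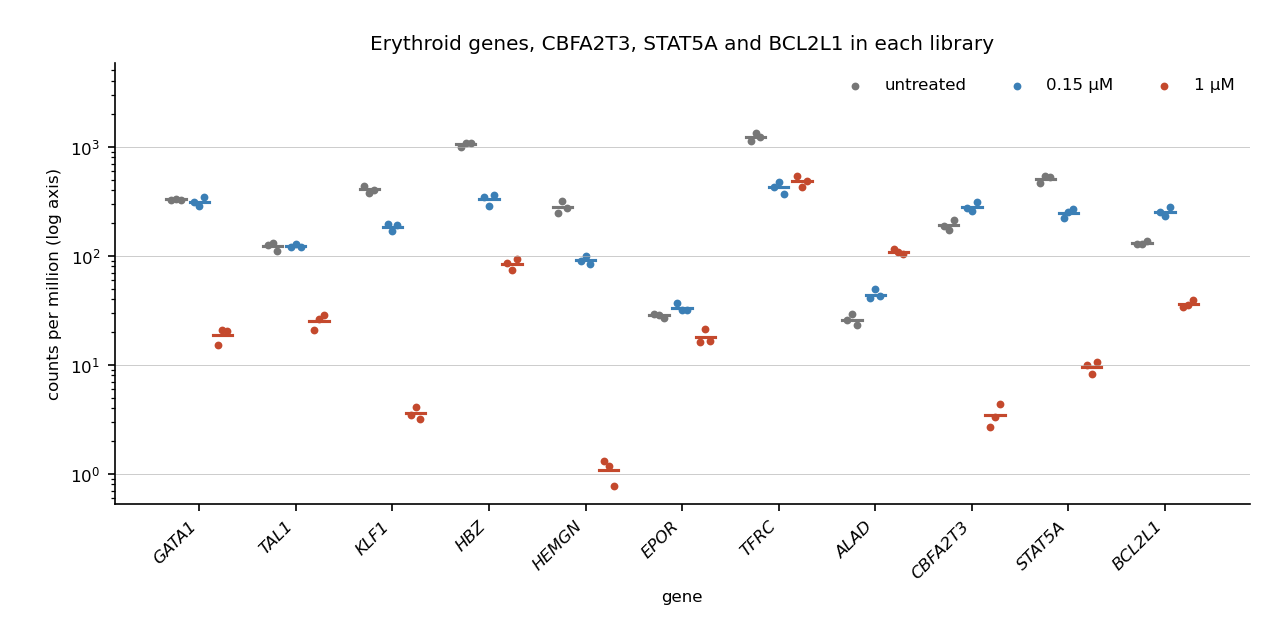
CPM of 8 erythroid genes and of CBFA2T3, STAT5A and BCL2L1 in each library (y axis, log scale), with 3 libraries per group as points and the group mean as a bar. GATA1 and TAL1 lie at similar levels in untreated and 0.15 µM libraries and far lower at 1 µM, whereas ALAD rises at each step and TFRC is similar at both doses.

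CBFA2T3, STAT5A and BCL2L1 belong to no erythroid list here and were named by the same rule, and all 3 fell between the doses. CBFA2T3 (chr16:88874858-88977207), also known as ETO2, a corepressor found in complexes with GATA1 and TAL1, stood at 187, 173 and 213 CPM in untreated libraries, at 274, 256 and 311 at 0.15 µM and at 2.66, 3.35 and 4.32 at 1 µM. The low dose lay above the untreated level (log2 fold change 0.55, edgeR adjusted p = 0.00571), and the fall between the doses was 81.2-fold (log2 fold change -6.34 ± 0.20). STAT5A, a signal transducer downstream of BCR-ABL and of the erythropoietin receptor, stepped down from 510.2 to 247 and 9.62 CPM on average, 25.6-fold between the doses. BCL2L1, which encodes the survival protein BCL-XL, had 129, 129 and 137 CPM in untreated libraries, 251, 232 and 279 at 0.15 µM and 34.1, 35.5 and 39.0 at 1 µM. It rose at the low dose (log2 fold change 0.95) and lay below untreated cells at the high dose (-1.86), and 41.3% of its exon sequence overlaps a gene on the other strand.

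The JAK-STAT list as a whole had no common direction. Of 34 members tested, 12 rose and 9 fell, with a median log2 fold change of 0.25. SOCS3, a feedback inhibitor of JAK kinases, rose at each step, from 28.1 to 60.6 and 261 CPM, and of 16 inhibitors in the list 6 rose and 2 fell between the doses.

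Myeloid and stem cell genes rose at the low dose and fell in part at the high dose, where the list median stayed above the untreated level. Of 29 members tested, 20 were called higher and 1 lower at 0.15 µM against untreated cells, and between the doses 16 fell and 4 rose, with a median log2 fold change of -1.42. At 1 µM against untreated cells 14 were called higher and 10 lower, with a median of 1.66. The median member was low in all groups, so small counts lie behind many of these calls, and with at least 10 counts required in every library the median moved to -1.87. LYZ, the lysozyme of myeloid cells, stood at 8.30, 6.84 and 8.30 CPM in untreated libraries, 21.8, 24.0 and 18.3 at 0.15 µM and 1.21, 1.83 and 2.23 at 1 µM, above the untreated level at the low dose and below it at the high dose. PTPRC, which encodes the leukocyte antigen CD45, overlapped between untreated (57.9 CPM) and low-dose libraries (61.3 CPM) and fell 33.4-fold, to 1.83 CPM. CSF1R, the receptor of macrophage colony-stimulating factor, rose at both steps instead, from 0.457 to 5.14 and 25.9 CPM.

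Megakaryocyte and platelet genes were mixed between the doses, with 7 of 23 members higher and 8 lower (4 lower and 5 higher without the libraries that stood apart). Leaving out replicate 1 or replicate 2 at 1 µM alone left 5 called lower. Against untreated cells 13 were called higher and 2 lower at 0.15 µM, and 16 higher and 5 lower at 1 µM. With library totals these were 18 higher and 0 lower, and 17 higher and 5 lower. Of all genes tested, 31.9% and 38.8% were called higher at these doses. Only 23 of 35 members were tested, and some may have passed the filter only through treated groups. THBS1, thrombospondin of platelet granules, stepped up from 15.3, 11.9 and 8.34 CPM to 44.7, 38.2 and 28.7 and 241, 195 and 222. ARHGAP6, a regulator of small GTPases, overlapped between untreated and low-dose libraries and fell 10.4-fold to 7.97 CPM, and CD36, a platelet and erythroid scavenger receptor, fell 9.32-fold to 9.34 CPM.

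Lysosome genes rose more often than they fell. Of 59 members tested, 25 rose and 11 fell, with a median log2 fold change of 0.30, and the counts were 26 and 10 without the libraries that stood apart (median 0.46). The medians against untreated cells were 0.08 at 0.15 µM and 0.40 at 1 µM (0.45 and 0.76 with library totals). By role, 4 of 8 subunits of the proton pump that acidifies the lysosome rose and none fell, 6 of 12 membrane proteins and carriers rose and 1 fell, 11 of 27 glycosidases and lipid enzymes rose and 5 fell, and among 12 proteases 4 rose and 5 fell.

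NEU1 (chr6:31857659-31862905), the lysosomal sialidase, changed most: 62.9, 56.1 and 56.2 CPM in untreated libraries, 87.6, 87.0 and 88.4 at 0.15 µM and 1072, 1155 and 839 at 1 µM. The groups formed 3 separate levels, and the rise between the doses was 11.7-fold (log2 fold change 3.54 ± 0.24, edgeR adjusted p = 1.56e-09). MCOLN1, the calcium channel of the lysosomal membrane, held 24.1, 22.4 and 25.8 CPM, then 16.5, 16.2 and 22.5, then 59.2, 68.1 and 53.0, a rise of 3.26-fold from the low to the high dose. CTSS, the protease cathepsin S, went the other way, from 13.3, 12.2 and 11.3 CPM at 0.15 µM to 1.21, 1.31 and 1.33 at 1 µM, 9.53-fold lower.

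Autophagy genes rose from the low to the high dose, with 21 of 44 members higher and 4 lower (20 and 2 without the libraries that stood apart) and a median log2 fold change of 0.40. Against untreated cells the median was -0.29 at 0.15 µM (8 called higher, 18 lower) and 0.21 at 1 µM (18 higher, 13 lower). The side on which the low dose lay turned with the scaling, since with library totals its median was 0.08, with 16 called higher and 5 lower. The 4 called lower became 2 without any 1 of the untreated libraries, replicate 3 at 0.15 µM or replicate 1 or 3 at 1 µM. By role, 7 of 10 cargo receptors and mitophagy genes rose, as did 5 of 6 genes of lipid transfer and membrane supply, and in the conjugation and LC3 family 3 of 14 rose and 3 fell. Differences between roles were not tested, here or in the other lists. SQSTM1, the cargo receptor p62, stood at 147, 138 and 135 CPM in untreated libraries, 99.6, 93.0 and 107 at 0.15 µM and 596, 665 and 508 at 1 µM, a rise of 5.90-fold between the doses (log2 fold change 2.56 ± 0.21). Its fall at the low dose against untreated cells (log2 fold change -0.49, adjusted p = 0.0475) lost its call under 13 of 19 alternatives. ATG2A, a lipid transfer protein of the growing autophagosome, rose from 127, 108 and 129.7 to 502, 346 and 438 CPM, whereas the mitophagy receptor FUNDC1 fell 2.01-fold, to 13.0 CPM.

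More chaperone genes fell than rose between the doses. Of 47 members tested, 20 fell, 8 rose and 19 were not called (14 fell and 8 rose without the libraries that stood apart). The list median was -0.29 between the doses. Against untreated cells it was -0.78 at 0.15 µM and -1.23 at 1 µM (-0.42 and -0.87 with library totals). All 10 chaperonin genes, whose products form the folding chambers of the cytosol and mitochondria, were called lower than untreated at either dose under TMM scaling, and 6 fell further between the doses. The HSP70 and HSP110 family had 5 members higher and 5 lower, and the J-proteins that deliver substrates to HSP70 had 3 higher and 2 lower. Among HSP90 and its co-chaperones 3 of 8 fell, among small heat shock proteins 2 of 5 fell, and none in either role rose.

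DNAJB1 (chr19:14514769-14560391), the stress-induced J-protein, was below untreated at the low dose and above it at the high dose: 289.8, 281 and 278 CPM, then 158, 163 and 188, then 895, 1053 and 687. The rise between the doses was 5.18-fold (log2 fold change 2.37 ± 0.25). HSPH1, the HSP110 exchange factor, stepped down instead, from 362, 417 and 418 to 155, 165 and 167 and 22.5, 20.8 and 23.7 CPM. BAG2, a cochaperone of HSP70, fell 8.26-fold between the doses, to 10.3 CPM, with 44.2% of its exon sequence under a gene of the opposite strand.

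Proteasome genes had a lower list median at each step. Of 43 members tested, 32 were called lower than untreated at 0.15 µM and 34 at 1 µM (24 and 27 with library totals), and between the doses 18 fell and 1 rose with a median of -0.30 (14 fell and 2 rose without the libraries that stood apart). With TMM computed from genes of at least 10 CPM 18 fell and 5 rose, with a median of -0.18, and 2 rose without replicate 3 at 0.15 µM. In the core particle 6 of 14 fell, in the regulatory particle 4 of 17 fell and 1 rose, and 4 of 5 assembly factors fell. Of all genes tested 23.1% fell, which is near the share in the regulatory particle, where 12 members were not called. PSMD14, the deubiquitinase of the regulatory lid, stood at 207, 235 and 240.4, then 145, 118 and 141, then 55.4, 49.4 and 55.5 CPM. PSMA1 of the core fell 2.44-fold, with 26.7% of its exon sequence under another gene of its strand. PSMD2, a scaffold of the regulatory particle and the 1 member that rose, fell at the low dose from 487 to 312 CPM and stood at 531 CPM at the high dose, overlapping untreated libraries.

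The integrated stress response slows translation through phosphorylation of eIF2alpha and induces genes of amino acid supply through the factor ATF4. In its list, among 18 tested transcription factors and feedback genes 8 rose and 4 fell, and 6 of 9 amino acid transporters and 6 of 10 amino acid and one-carbon enzymes fell. The whole list had 11 of 41 members higher and 17 lower, with a median of -0.17 that moved to -0.04 under another scaling and to -0.068 without replicate 3 at 0.15 µM. DDIT3, the stress factor CHOP, overlapped between untreated (11.0, 12.0 and 11.7 CPM) and low-dose libraries (7.66, 10.1 and 14.0 CPM) and rose to 36.4, 43.3 and 31.5 CPM. SLC7A11, the cystine importer, fell at both steps, from 20.3, 25.5 and 23.6 to 9.31, 8.72 and 6.95 and 1.74, 1.45 and 2.06 CPM, and SLC6A9, a glycine transporter, fell 10.4-fold between the doses to 2.29 CPM.

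**Figure D3:**
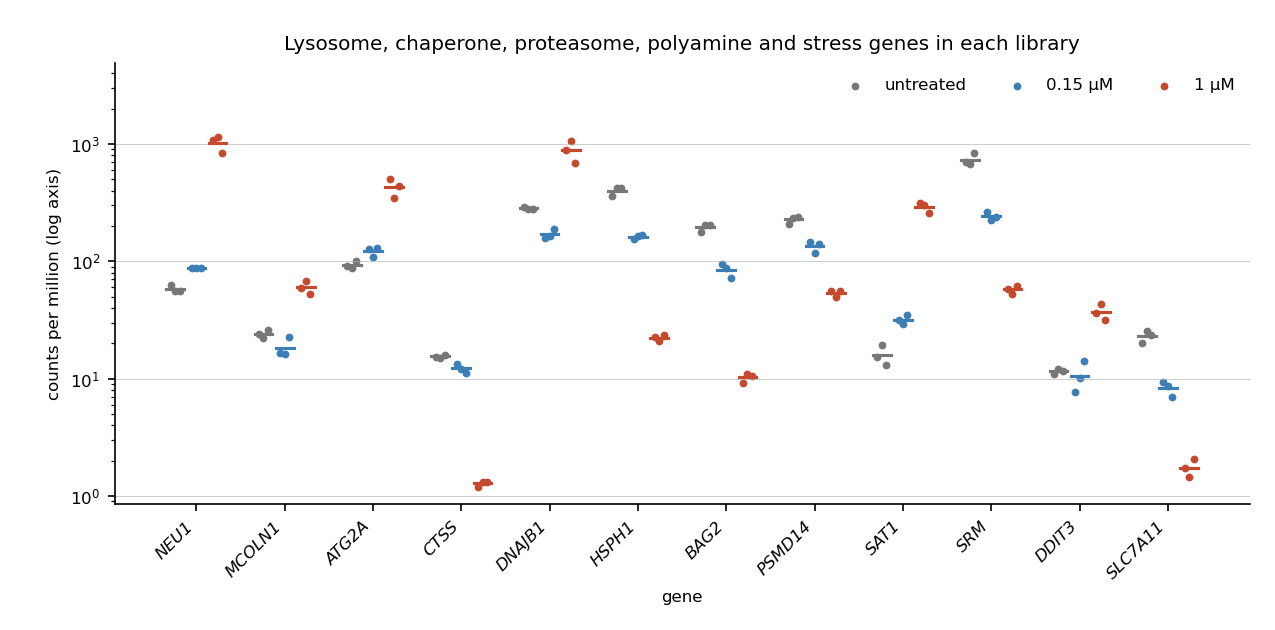
CPM of 12 genes of the lysosome, autophagy, chaperones, proteasome, polyamine metabolism and stress response in each library (y axis, log scale), with points for libraries and bars for group means of 3. NEU1, ATG2A, DNAJB1 and SAT1 are highest at 1 µM, and HSPH1, BAG2, PSMD14, SRM and SLC7A11 step down from untreated to 0.15 µM to 1 µM.

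Metallothioneins, small proteins that bind zinc and copper, and the genes of zinc handling had 10 members in the list, of which 7 passed the filter. Each of these 7 was called higher between the doses (21.5% of all genes tested were), with a median log2 fold change of 2.19. Genes with few or no counts in untreated cells could pass the filter only through treated groups, so this count is a description. With at least 10 counts required in every library, the whole NRF2 and metallothionein list had 11 of 25 members higher, against 14 of 29 in the main fit. MT1X held 1.06, 0.734 and 1.02 CPM in untreated libraries, 2.43, 3.00 and 2.79 at 0.15 µM and 26.2, 24.2 and 19.2 at 1 µM, a rise of 8.46-fold (log2 fold change 3.08 ± 0.19). MT1G had no count in the untreated libraries, 4.78, 4.02 and 6.06 CPM at 0.15 µM and 28.3, 26.7 and 23.6 at 1 µM. Set against a floor of 3 counts over the untreated group, MT1G was at least 125-fold higher at 0.15 µM and at least 662-fold higher at 1 µM, and it rose 5.28-fold between the doses. Metallothionein genes are short and similar to each other, so counts may be shared among them.

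NRF2 and its targets, which supply glutathione, thioredoxin and iron storage, were mixed, with 7 of 22 tested higher and 5 lower. GSR, glutathione reductase, fell 3.15-fold, from 147, 160.0 and 150.1 to 46.5, 52.5 and 46.2 CPM. Named after their values were seen, the ferritin light chain FTL rose from 1929 to 6574 CPM (log2 fold change 1.77 ± 0.33) and the heavy chain FTH1 from 832 to 1445 CPM (0.80 ± 0.24). NQO1, a standard readout of NRF2, fell from 38.7 to 15.4 CPM.

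Polyamine genes changed in both directions. Polyamines are small cations needed for growth, made from ornithine by ODC1 and SRM and removed through acetylation by SAT1. ODC1, the rate-limiting enzyme, held 1221, 1255 and 1250.3 CPM in untreated libraries, 244, 259.6 and 275 at 0.15 µM and 2718, 2529 and 1978 at 1 µM. SAT1 stepped up from 15.4, 19.5 and 13.0 to 31.6, 29.0 and 35.0 and 314, 299 and 257 CPM, 9.10-fold between the doses. SRM, spermidine synthase, stepped down from 702, 669.8 and 829 to 264, 224 and 239 and 58.3, 53.1 and 61.1 CPM, 4.21-fold between the doses. In the list as a whole 7 of 20 rose and 4 fell.

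Ribosome biogenesis genes fell at both steps. Of 65 members tested, 59 were called lower than untreated at 0.15 µM (median log2 fold change -1.03), and between the doses 51 fell and none rose (median -1.05), which put the median at -2.07 at 1 µM against untreated cells with 64 called lower. With library totals the medians against untreated were -0.67 and -1.71. Without the libraries that stood apart 46 fell and none rose, and no alternative called a member higher. NOP16, a nucleolar assembly factor, stood at 107, 121 and 111, then 35.9, 42.3 and 38.2, then 6.00, 5.77 and 5.44 CPM, a fall of 6.76-fold between the doses (log2 fold change -2.76 ± 0.13, edgeR adjusted p = 3.68e-11). PPAN, another nucleolar factor, overlapped between untreated and low-dose libraries and fell 5.52-fold, with 49.2% of its exon sequence under another gene of its strand.

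Mitochondrial ribosome genes followed, with 43 of 77 lower and 2 higher between the doses and a median of -0.57. Nuclear genes of oxidative phosphorylation had 33 of 77 lower and 4 higher, with a median of -0.39. Complex I had 19 of 37 lower and 2 higher, and complex V had 7 of 15 lower and none higher. Complex II, the succinate dehydrogenase, had none of 4 lower and 1 higher between the doses. Against untreated cells, all 4 complex II genes were called lower at 0.15 µM and 3 at 1 µM under TMM scaling. At 0.15 µM, 60 mitochondrial ribosome genes and 44 oxidative phosphorylation genes were already called lower than untreated (41 and 26 with library totals). Members of both lists have short exons (median 2549 and 2615 bases, against 3787.5 bases for all genes tested), and short genes lay higher in the libraries standing apart relative to their groups. Without those libraries 36 and 28 fell, with medians of -0.63 and -0.42. The mitochondrial ribosome median was -0.44, with 34 called lower, without replicate 3 at 0.15 µM alone. It was -0.64, with 45 called lower, without replicate 2 at 1 µM alone. The part of exon length in these falls was not tested. The oxidative phosphorylation median was -0.24 without replicate 3 at 0.15 µM alone, and its 4 members called higher became 1 without replicate 1 at 0.15 µM and 2 without replicate 2 at 0.15 µM or replicate 1 or 2 at 1 µM.

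NDUFS6 of complex I stood at 187, 189 and 199.6, then 74.1, 72.5 and 113, then 31.4, 32.8 and 31.9 CPM, and the highest low-dose value belongs to replicate 3, which stood apart. MRPL15 of the large mitochondrial subunit fell 3.13-fold between the doses, from 82.7 to 26.4 CPM, MRPL23 fell 4.23-fold and UQCRFS1, the Rieske protein of complex III, 2.29-fold. MRPL10 was an exception, at 108, 118 and 112 CPM, then 82.4, 90.8 and 81.0, then 190.4, 171 and 167. COX6A1 of complex IV was called higher (adjusted p = 0.0428), but its highest value, in replicate 2 at 1 µM, comes from a library that stood apart, and the call was lost under 8 of 19 alternatives, including the fit without that library.

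DNA replication and mitosis genes had fallen at the low dose and fell further for some members. At 0.15 µM 44 of 56 replication genes and 49 of 60 mitosis genes were called lower than untreated and none higher, and with library totals 38 and 35 were lower and 1 and 2 higher. Between the doses 29 replication genes fell and 8 rose, with a median of -0.48, and 20 fell and 5 rose without the libraries that stood apart. Leaving out replicate 1 at 0.15 µM or replicate 1 at 1 µM likewise left 5 called higher. Of the mitosis genes 26 fell and 5 rose, with a median of -0.35, and without the libraries that stood apart 12 fell and 3 rose with a median of -0.33. The count of calls thus dropped while the median changed little. Leaving out a single library, replicate 2 at 0.15 µM, replicate 1 at 1 µM or replicate 2 at 1 µM, left 16, 17 and 15 mitosis genes called lower.

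Licensing and helicase genes had 12 of 23 lower and 2 higher, and polymerase and fork genes 11 of 23 lower and 5 higher. TYMS, thymidylate synthase, stepped down from 74.9, 86.1 and 84.5 to 27.3, 26.7 and 24.0 and 3.44, 1.90 and 3.07 CPM, with 47.9% of its exon sequence under a gene of the opposite strand. RRM2, a subunit of ribonucleotide reductase, fell at the low dose from 314, 361 and 346 to 112, 123 and 92.5 CPM and stood at 336, 254 and 257 CPM at the high dose, overlapping untreated libraries. E2F2, a transcription factor of S phase, overlapped between untreated and low-dose libraries and fell 4.05-fold to 17.7 CPM. In mitosis, MAD2L1 of the spindle checkpoint and the phosphatase CDC25A fell 3.54-fold and 3.21-fold, and CENPI, a kinetochore protein, rose from 30.7, 30.8 and 26.6 to 74.7, 67.1 and 81.4 CPM, above its untreated 42.9, 44.3 and 45.8.

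**Figure D4:**
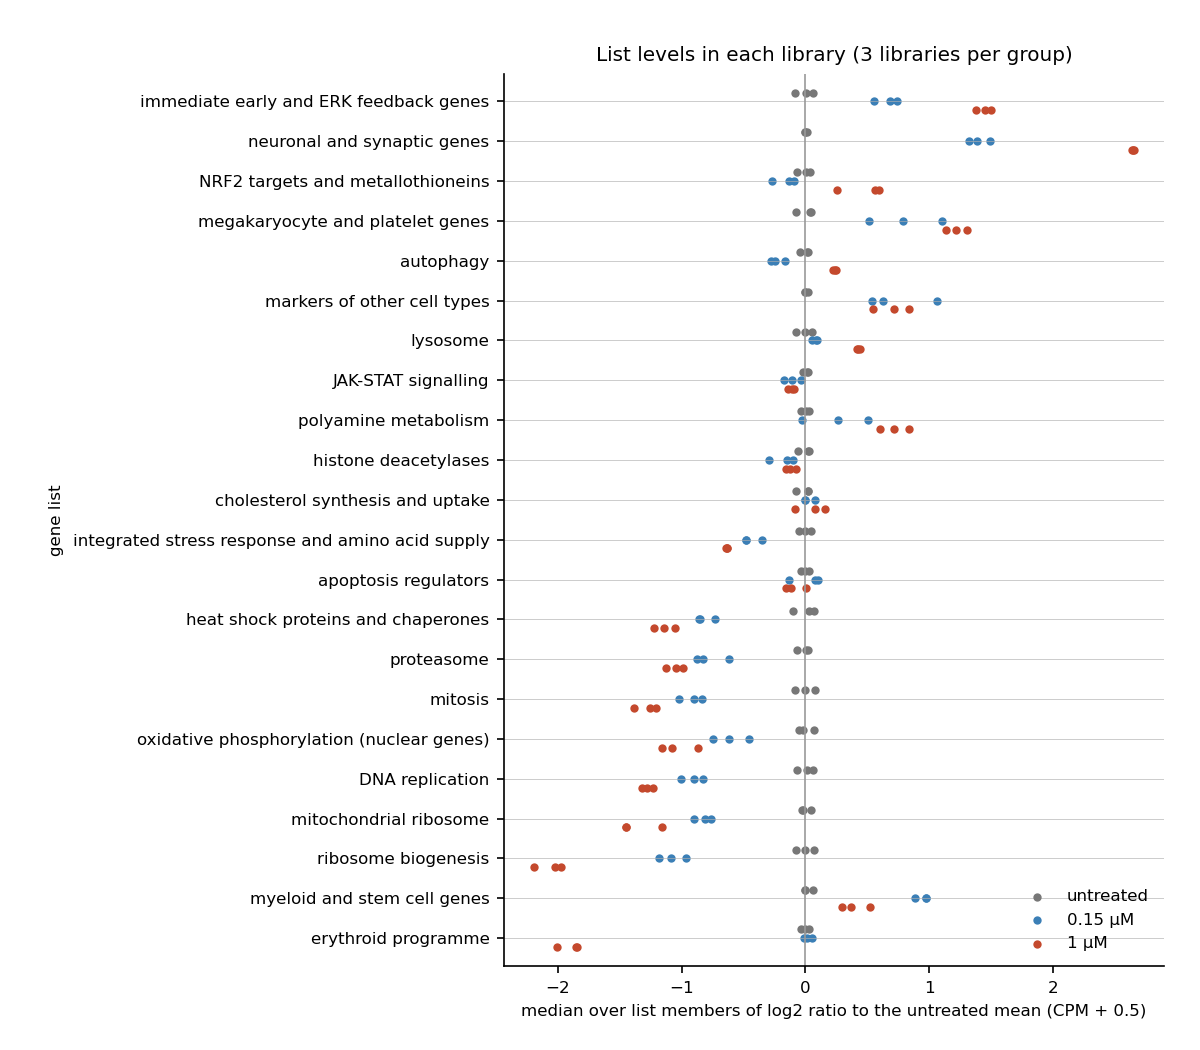
Level of each list in each library, as the median over its members of the log2 ratio to the untreated mean (x axis, computed on CPM + 0.5), for 22 lists (y axis) and 3 libraries per group. Ribosome biogenesis steps down from untreated to 0.15 µM to 1 µM, erythroid libraries at 0.15 µM lie between -0.01 and 0.05 and those at 1 µM at -1.84 or lower, and autophagy is higher at 1 µM than at 0.15 µM. The plot uses TMM scaling, under which autophagy lies below the untreated level at 0.15 µM, and with library totals its low-dose median is above that level.

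Immediate early genes are transcribed within minutes of a stimulus, and ERK feedback genes restrain the kinase cascade that often drives them. Of 20 immediate early factors, 15 rose and 3 fell between the doses (median log2 fold change 1.03), and 4 of 17 ERK feedback and output genes rose and 8 fell (median -0.44). The whole list had 19 of 37 higher and 11 lower. NR4A1, an orphan nuclear receptor, overlapped between untreated (4.46, 7.84 and 7.36 CPM) and low-dose libraries (7.63, 7.87 and 7.16 CPM) and rose to 56.6, 48.1 and 44.4 CPM. DUSP1, a phosphatase of stress-activated kinases, stood at 25.6, 25.6 and 24.5, then 14.0, 14.4 and 10.7, then 129.6, 132 and 95.1 CPM, below untreated at the low dose and above it at the high dose. FOSL1, the AP-1 subunit FRA-1, fell from 18.3, 17.0 and 19.3 to 1.74, 1.07 and 1.46 CPM.

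Apoptosis regulators showed no common direction, with 10 of 39 higher, 12 lower and a median of -0.20. The median was -0.12 without replicate 1 at 1 µM and between -0.08 and -0.10 with RLE scaling, DESeq2, TMM from genes of at least 10 CPM, the filter of 10 counts or both libraries that stood apart left out. Of 10 BH3-only proteins, which trigger cell death by opposing BCL2 relatives, 4 rose and 2 fell. BMF stepped up from 2.62, 3.05 and 2.74 to 17.9, 15.4 and 14.5 and 83.1, 77.0 and 82.0 CPM, 5.06-fold between the doses. CFLAR, the caspase-8 inhibitor FLIP, fell 7.51-fold, from 106, 104 and 119.9 to 12.5, 13.8 and 17.5 CPM. Caspases and their inhibitors were split evenly, with 4 of 15 higher and 4 lower.

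Neuronal and synaptic genes, which are not part of the haematopoietic programme, were already raised at the low dose (56 of 65 called higher than untreated and 3 lower), and 31 rose further while 9 fell between the doses, with a median of 0.56. Many had few counts in untreated cells, and 15 of the 36 that had at least 10 counts in every library were called higher under that filter. Without the libraries that stood apart, 31 rose and 5 fell. TUBB3, the neuronal beta-tubulin, held 0.327, 0.193 and 0.274 CPM in untreated libraries, 1.65, 1.69 and 1.24 at 0.15 µM and 47.3, 44.7 and 32.0 at 1 µM, with 21.3% of its exon sequence under another gene of its strand. CHRNB2, a nicotinic receptor subunit, rose 13.5-fold between the doses, to 10.6 CPM.

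Markers of other cell types gave no single direction between the doses, with 5 of 23 members higher and 9 lower. Of 27 markers, 7 had no count in untreated libraries, 2 at 0.15 µM and 1 at 1 µM. Their summed level lay between 1724 and 1875 CPM in untreated libraries, between 3918 and 5421 at 0.15 µM and between 5215 and 7620 at 1 µM, most of it from the keratins KRT8, KRT18 and KRT19, which gave 1443 to 1584 CPM in untreated cells. The 23 members other than the keratins and the collagen COL1A1 summed to 264 to 286 CPM in untreated libraries. Their sum was 231 to 245 CPM at 0.15 µM and 72.9 to 87.8 CPM at 1 µM. These members include ALB and also PTPRC, which is in the myeloid list above as well. ALB, serum albumin, held 16.4, 14.9 and 16.0 CPM in untreated libraries, 50.4, 43.0 and 41.1 at 0.15 µM and 0.887, 0.829 and 0.907 at 1 µM. KDR, the endothelial VEGF receptor, held 4 counts in all untreated libraries together and stood at 5.10, 6.04 and 4.71 CPM at 0.15 µM and 16.3, 13.9 and 18.2 at 1 µM. The part of other cells in these levels was not tested.

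Sterol genes split, with 10 of 33 higher and 6 lower and a median of -0.00. ABCG1, an exporter of cholesterol, had no count in untreated libraries and rose from 1.34, 1.55 and 0.964 to 10.6, 9.15 and 11.4 CPM, which is at least 32.4-fold and at least 262-fold above a floor of 3 counts over the untreated group. TM7SF2, a sterol reductase, stepped up from 7.04 to 43.6 and 193 CPM.

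The histone deacetylases themselves, the targets of the inhibitor class, did not move as one. Of 11 tested, 5 rose and 3 fell between the doses. Among class I enzymes, HDAC1 rose from 156, 199 and 232 to 322, 326 and 315 CPM, HDAC2 fell from 243, 232 and 234 to 100.5, 101 and 107 CPM, HDAC3 rose 1.36-fold and HDAC8 held 12.2, 11.7 and 12.8 CPM and 12.1, 12.3 and 13.6 CPM, overlapping. HDAC7 fell most, from 95.8, 96.6 and 112 to 13.2, 16.0 and 19.7 CPM (6.21-fold, log2 fold change -2.64 ± 0.18). HDAC5, HDAC6 and HDAC11 rose 2.07-fold, 1.53-fold and 2.00-fold. HDAC4 was called lower (log2 fold change -0.40 ± 0.15), a call that 14 of 19 alternatives lost, and HDAC9 (log2 fold change -0.74 ± 0.44) and HDAC10 (-0.38 ± 0.25) were not called.

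Among genes named by the size of their change, 5 of the 6 highest had means of at most 0.371 CPM at the low dose and the other one held 10.2. MIR7-3HG had no count in untreated libraries, 0.281, 0.212 and 0.413 CPM at 0.15 µM and 373, 377 and 282 at 1 µM. The lncRNA ENSG00000287064 (chr1:154671593-154678345) held 0.164, 0.0772 and 0.313 CPM in untreated libraries, 9.77, 12.7 and 8.16 at 0.15 µM and 684, 529 and 560.5 at 1 µM, 58.0-fold between the doses. LINC01511, LINC02757, the lncRNA ENSG00000268756 and IRGM, an immunity-related GTPase linked to autophagy, had means of at most 0.371 CPM at 0.15 µM and between 11.0 and 43.9 CPM at 1 µM.

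At the other end stood MIR223HG, with 7.81, 10.5 and 4.93 CPM in untreated libraries, 52.0, 50.0 and 38.4 at 0.15 µM and 0.0710, 0.0691 and 0.0697 at 1 µM. The 1 µM libraries held 6 counts in all against 4010 at 0.15 µM, a ratio of 668 with a 95% exact interval from 307 to 1822 that covers counting error only. ENSG00000237311, a lncRNA on the same chromosome (chrX:65925836-66001436), fell from 645 counts at 0.15 µM to 7 at 1 µM. HEMGN, KLF1, CBFA2T3 and ALB, described above, completed the 6 lowest genes. The miR-223 arms printed above lie in exons of MIR223HG, and no mature miRNA was measured here.

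**Figure D5:**
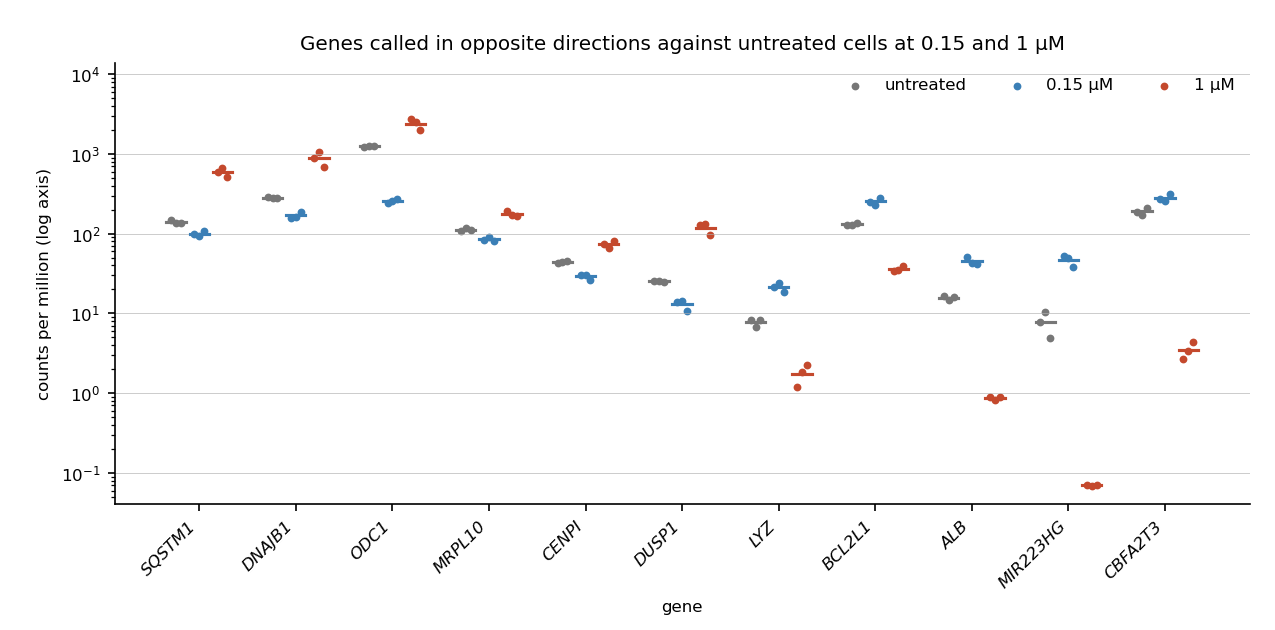
CPM in each library (y axis, log scale) of 11 named genes that were called in opposite directions against untreated cells at 0.15 and 1 µM, with points for libraries and bars for means of 3. SQSTM1, DNAJB1, ODC1, MRPL10, CENPI and DUSP1 dip at 0.15 µM and are highest at 1 µM, and the other 5 peak at 0.15 µM and are lowest at 1 µM.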

How the data were processed

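Per the labels and the methods of the study, the authors enriched poly(A) RNA for directional libraries and trimmed reads with Trim Galore 0.6.10 and Trimmomatic. They aligned reads to hg38 with HISAT2 2.2.1, handled alignments with SAMtools 1.21 and counted fragments per gene with featureCounts 1.5.3. The deposited values used here were raw counts of 60649 genes in 15 libraries. The strand setting of the counting is not given in the sources used here, so overlap of exons with other genes (GENCODE 44) is given where it is large. The study counted on an earlier GENCODE release, so these overlaps may differ from those in the counting. All 37 mitochondrial genes were at 0 counts. FPKM tables of single libraries were not used here. Depth and its limits are given with the results.

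Counts were fitted with edgeR 4.0.16 (R 4.3.3): TMM scaling, filterByExpr, all 5 groups in 1 quasi-likelihood model with robust dispersion, and Benjamini-Hochberg adjustment over all 23711 genes tested (common biological coefficient of variation 0.228). CPM were computed from the same scaling, and list levels on log2(CPM + 0.5). The SE after ± is approximate: the size of the log2 fold change divided by the square root of the test's F statistic. Groups came from the labels. The alternatives, 19 in all, were another scaling, filter, tool or set of groups, a replicate block, each library of the 3 groups left out, and both libraries that stood apart left out together. The procedure was tested on simulated data in which few genes changed, as many up as down. Since far more genes were called here, that test cannot bear on the dependence on scaling.

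The members and gene lists were chosen with earlier results of these data known, and roles within lists were assigned after the values were seen. A gene was named if it was called between the doses, its libraries at 1 and 0.15 µM did not overlap and its mean reached 10 CPM in 1 of the 3 groups. From each list the 2 largest changes in the more frequent direction and the 1 largest in the other were taken, over all genes the 6 highest and 6 lowest, and all histone deacetylases tested, 81 genes in all, of which a few are not reported here. Since the rule demanded separate groups, lack of overlap between the doses is a property of the choice for the genes it named.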

Additional observations from a re-analysis of the deposited data

Results flagged for a closer look

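Of the named genes, 11 given here were called in opposite directions against untreated cells at 0.15 and at 1 µM. Each was also called between the doses in edgeR's quasi-likelihood fit with Benjamini-Hochberg adjustment. The naming rule demanded that call, so it is a property of the choice and adds no support. Among the 11 genes, 6 lay below untreated at the low dose and above it at the high dose. Between the doses the change was positive for SQSTM1 (log2 fold change 2.56, from -0.49 at 0.15 µM to 2.07 at 1 µM against untreated), DNAJB1 (log2 fold change 2.37, from -0.74 at 0.15 µM to 1.63 at 1 µM against untreated) and ODC1 (log2 fold change 3.21, from -2.26 at 0.15 µM to 0.96 at 1 µM against untreated). It was also positive for MRPL10 (log2 fold change 1.05, from -0.41 at 0.15 µM to 0.64 at 1 µM against untreated), CENPI (log2 fold change 1.34, from -0.60 at 0.15 µM to 0.75 at 1 µM against untreated) and DUSP1 (log2 fold change 3.19, from -0.95 at 0.15 µM to 2.24 at 1 µM against untreated). The other 5 lay above untreated at the low dose and below it at the high dose. Their differences were negative for LYZ (log2 fold change -3.60, from 1.45 at 0.15 µM to -2.15 at 1 µM against untreated) and BCL2L1 (log2 fold change -2.81, from 0.95 at 0.15 µM to -1.86 at 1 µM against untreated). The last of them were ALB (log2 fold change -5.67, from 1.51 at 0.15 µM to -4.17 at 1 µM against untreated), MIR223HG (log2 fold change -9.30, from 2.59 at 0.15 µM to -6.71 at 1 µM against untreated) and CBFA2T3 (log2 fold change -6.34, from 0.55 at 0.15 µM to -5.79 at 1 µM against untreated). For each of these genes the 3 libraries of a dose overlapped neither with those of the other dose nor with untreated libraries. Separation of the doses was likewise demanded by the naming rule. The calls of SQSTM1 and MRPL10 at 0.15 µM against untreated were lost under 13 and 12 of 19 alternatives, that of DNAJB1 under 4, of CENPI under 3 and of ALB under 1 of 18. Replicate groups of 3 are too small for a test of single libraries that lie far out.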

How the results depend on the processing

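The counts of genes called between the doses stayed within 1.5 times of the main counts under all 19 alternatives, from 7564 to 11980 in all (3523 to 6094 higher, 4041 to 6207 lower), the lowest with at least 10 counts required in every library. Against untreated cells, that filter, which tested fewer genes, gave 7517 genes (4090 higher) at 0.15 µM and 9690 (4998 higher) at 1 µM, and the lower calls at 0.15 µM were 2118 with library totals and 2891 with TMM computed from genes of at least 10 CPM. A fit with a replicate block called 5105 genes higher and 5471 lower between the doses, and the numbers gave no sign of pairing, with correlations of same-numbered deviations between the doses of 0.0027, -0.15 and -0.082. Every list median kept its direction under the alternatives tried except those of cholesterol genes, near 0 in most fits and 0.17 without the libraries that stood apart, histone deacetylases (-0.0061 without replicate 3 at 1 µM) and markers of other cell types, -1.07 under the count filter, where fewer genes were tested. Medians that moved by more than the spread between libraries were as follows. With RLE scaling they were 0.51 for autophagy, 0.41 for lysosome, -0.058 for the integrated stress response, -0.37 for DNA replication, -1.83 for erythroid genes, 0.36 for JAK-STAT and 0.67 for neuronal genes, and with DESeq2 0.51, 0.41, -0.060, -0.38, -1.83, 0.36 and 0.67. TMM computed from genes of 10 CPM and above gave 0.52, 0.43, -0.044, -0.36, -1.81, 0.37 and 0.68 for the same lists, -0.17 for chaperones, 0.69 for immediate early genes and 0.17 for histone deacetylases. This scaling moved the median of all genes from 0.02 to 0.14 and RLE scaling to 0.12. With the count filter they were 0.52 for autophagy, 0.40 for lysosome, -0.38 for DNA replication, 0.016 for megakaryocyte genes, -1.87 for myeloid genes and 0.38 for neuronal genes. Fits of 3 groups and of 2 groups gave 0.65 and 0.65 for neuronal genes. Without the libraries that stood apart, chosen after seeing the data, the medians were 0.46 for lysosome, -0.36 for DNA replication, -1.80 for erythroid genes and 0.69 for neuronal genes. Leaving out single libraries gave ranges of 0.27 to 0.42 for lysosome, -0.23 to -0.068 for the integrated stress response, -1.96 to -1.80 for erythroid genes, -1.67 to -1.17 for myeloid genes and 0.53 to 0.77 for neuronal genes. Of 78 named genes called between the doses, 76 were called under every alternative that gave a value, and COX6A1 and HDAC4 were not. HDAC8, not called, gave -0.0061 to 0.13 with single libraries left out. The cause of these shifts was not tested. Depth limits genes near 0 counts in 1 group, whose fold changes are given as bounds or counts.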

Other observations

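The 2 doses between the extremes, 0.25 and 0.5 µM, entered the fit and no comparison above, and their list levels are given here as the median library of 3, each level being the median over members of the log2 ratio to the untreated mean. From the lowest dose to the highest, the erythroid list stood at 0.01, -0.51, -1.92 and -1.85. Autophagy genes followed the order -0.25, -0.08, 0.24 and 0.24, and the NRF2 and metallothionein list -0.13, -0.05, 0.45 and 0.57. With library totals in place of TMM the low-dose medians of the fit turned to 0.31 for erythroid, 0.076 for autophagy and 0.19 for NRF2 genes. In these 3 lists the level at 0.5 µM lay near that at 1 µM. DNA replication genes stood at -0.90, -1.62, -1.25 and -1.28 and mitosis genes at -0.90, -1.32, -1.27 and -1.25, and in both lists the libraries at 0.25 and 0.5 µM overlapped. Ribosome biogenesis genes stood at -1.09, -1.61, -1.94 and -2.02, where the libraries at 0.5 µM (-2.54 to -1.93) and 1 µM (-2.19 to -1.98) overlapped, and neuronal genes stepped up, at 1.38, 1.67, 2.50 and 2.65. Polyamine genes gave 0.26, -0.05, 0.84 and 0.71. Differences between neighbouring doses were not tested.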
